A study of Mus musculus with 6 samples.

Results

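The Myc, Max and Mxd network was followed in RNA-seq of mouse bone marrow cells that were sorted by the LT-HSC (long-term haematopoietic stem cell) gate Lineage−Sca1+cKit+CD34−Flk2−. Its 10 genes were chosen by symbol: the Myc family (Myc, Mycn, Mycl), its partner Max, the antagonists Mxd1, Mxd3, Mxd4, Mxi1 and Mnt, and the parallel partner Mlx. All 10 were found among the 30409 gene identifiers, and 9 of them were among the 11505 genes kept at a mean of at least 1 FPKM (a read count divided by gene length and by library size) over the 4 libraries. Mycl lay below that minimum and is given by its values alone.

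The libraries came from C57BL/6 mice and formed 4 groups of 1 library each. These were cells from conditional Twist1 knockout (cKO) mice taken 12 days after irradiation, cells of wild-type mice taken 12 days after irradiation, and cells of Twist1 cKO and of wild-type mice at steady state. The Twist1 protein is a transcription factor of the basic helix-loop-helix class. The radiation dose, the Cre driver, and the age and number of mice behind a library are not given in the sources used here. Because a group is 1 library, the differences below lack a replicate check, and none was tested.

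Proteins of this network share a basic helix-loop-helix leucine zipper, and they bind the E-box CACGTG as dimers. Myc, Mycn or Mycl paired with Max recruit coactivators to genes of growth and ribosome synthesis, whereas Mxd proteins, Mxi1 and Mnt compete for Max and recruit the Sin3 corepressor. Mlx pairs with the glucose-responsive factors Mlxip and Mlxipl and also with Mxd1, Mxd4 and Mnt. In mouse haematopoietic stem cells Myc and Mycn have overlapping functions in proliferation and survival.

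Library sizes implied by the deposited values were between 22146433 and 26031985 reads, and intervals below are exact 95% intervals for counting error only. Markers of the labelled cell type were present at steady state, whereas most of them were below 1 FPKM after irradiation. Of 13 LT-HSC marker genes, 8 in the irradiated cKO library and 9 in the irradiated wild-type library lay below 1 FPKM, against 0 in both steady-state libraries. Their summed level was 269 FPKM in the irradiated cKO and 107 FPKM in the irradiated wild-type library, against 743 FPKM in the steady-state cKO and 839 FPKM in the steady-state wild-type library. Ly6a, the gene of the sorting antigen Sca1, made up most of the sum in the irradiated libraries and, at 534 FPKM, in the steady-state wild-type library. Without it the other 12 markers summed to 13.8 and 18.1 FPKM in the irradiated cKO and wild-type libraries, against 381 and 306 FPKM in the steady-state cKO and wild-type libraries. The summed level of 13 erythroid markers was 16778 FPKM in the irradiated cKO and 13750 FPKM in the irradiated wild-type library, against 2677.5 and 4075 FPKM in the steady-state cKO and wild-type libraries. The X-inactivation transcript Xist stood at 0.573 and 1.003 FPKM in the irradiated cKO and wild-type libraries, against 0.0155 and 0.0171 FPKM in the steady-state cKO and wild-type libraries. The Y-linked Ddx3y had 0.0164 and 0.0521 FPKM in the irradiated cKO and wild-type libraries, against 12.4 and 10.2 FPKM in the steady-state ones, so irradiation and sex cannot be told apart. Twist1 itself had 0 reads in the irradiated cKO library against 5 in the irradiated wild-type library, and 2 reads in the steady-state cKO library against 6 in the steady-state wild-type library. These counts were too low to check the deletion. Other cells' markers were present in all 4 libraries, none of them at 0: summed B and plasma cell markers, for example, reached 52926 and 22006 FPKM in the irradiated cKO and wild-type libraries, against 49201 and 82566 FPKM in the steady-state cKO and wild-type libraries.

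Sequence around the annotated starts was available in RefSeq (GRCm38.p6) for 9 members in 11 windows, each with 250 bases before and 50 after the start. No window was available for Myc, so Myc was not searched for either motif. The E-box CACGTG, which reads the same on both strands, was found in windows of Max, Mxd4, Mnt and Mlx, and 7.15% of all 32851 windows held it. The E2F-type core TTGGCGC, searched on both strands, was found in the window of Mycn alone among the members, with 2 copies, and 2.45% of all windows held it. No window of a member held both motifs. The windows with either motif are shown because the E-box is what the network's own dimers bind and because Mycn is the member with the greatest range. They run 5′ to 3′ on the gene's strand, with the motifs in capitals.
Mycn (chr12:12941787-12942086, minus strand): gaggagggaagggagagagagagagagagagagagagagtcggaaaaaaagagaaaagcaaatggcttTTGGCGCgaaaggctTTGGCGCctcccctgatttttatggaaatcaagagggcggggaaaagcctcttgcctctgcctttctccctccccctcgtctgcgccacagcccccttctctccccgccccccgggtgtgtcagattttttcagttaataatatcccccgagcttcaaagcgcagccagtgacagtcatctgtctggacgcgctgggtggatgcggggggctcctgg
Max (chr12:76962199-76962498, minus strand): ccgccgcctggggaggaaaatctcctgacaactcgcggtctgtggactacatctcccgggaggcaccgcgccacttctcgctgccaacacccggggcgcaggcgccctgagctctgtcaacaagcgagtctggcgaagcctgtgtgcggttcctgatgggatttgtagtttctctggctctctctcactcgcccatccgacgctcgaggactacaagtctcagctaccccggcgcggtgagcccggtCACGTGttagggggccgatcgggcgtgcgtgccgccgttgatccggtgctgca
Mxd4 (chr5:34187661-34187960, minus strand): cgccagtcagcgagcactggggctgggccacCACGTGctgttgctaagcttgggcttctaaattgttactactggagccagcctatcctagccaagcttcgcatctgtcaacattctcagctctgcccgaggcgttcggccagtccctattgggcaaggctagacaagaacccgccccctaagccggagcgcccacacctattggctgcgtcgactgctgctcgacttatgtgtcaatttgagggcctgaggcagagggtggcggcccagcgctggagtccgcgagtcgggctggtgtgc
Mnt (chr11:74830674-74830973, plus strand): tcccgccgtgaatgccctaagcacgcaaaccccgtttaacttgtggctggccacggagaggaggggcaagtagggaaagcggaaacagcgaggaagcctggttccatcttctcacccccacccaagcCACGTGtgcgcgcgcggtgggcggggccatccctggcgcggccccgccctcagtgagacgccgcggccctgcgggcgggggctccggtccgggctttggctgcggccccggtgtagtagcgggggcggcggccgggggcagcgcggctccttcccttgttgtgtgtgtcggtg
Mlx (chr11:101087040-101087339, plus strand): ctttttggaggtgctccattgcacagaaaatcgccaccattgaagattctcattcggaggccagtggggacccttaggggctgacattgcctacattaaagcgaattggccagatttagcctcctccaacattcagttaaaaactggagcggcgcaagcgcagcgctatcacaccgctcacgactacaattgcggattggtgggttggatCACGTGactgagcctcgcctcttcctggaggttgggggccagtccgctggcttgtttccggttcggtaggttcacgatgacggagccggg
The 4 members with the E-box lay on both sides of the median of all genes for irradiated against steady-state cells, Max and Mlx above it and Mxd4 and Mnt below it in both genotypes, with the values given below. A match is a description of these letters and not of a bound site.

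Mycn was the member that differed most between libraries. It is the family member best known from neural and embryonic progenitors and is also made in haematopoietic stem cells (ENSMUSG00000037169, GRCm38 chromosome 12, 12936093 to 12941836). After irradiation it had 0.142 FPKM (0.0711 to 0.255, 11 reads) in the cKO library and 0.0960 FPKM (0.0386 to 0.198, 7 reads) in the wild-type library. At steady state it had 38.9 FPKM (37.6 to 40.3, 3234 reads) in the cKO library and 39.2 FPKM (37.9 to 40.6, 3363 reads) in the wild-type library. Both irradiated libraries were thus far below both steady-state libraries, and the genotypes lay close together in each condition. The level was 273-fold lower after irradiation in cKO cells (152 to 548) and 409-fold lower in wild-type cells (198 to 1017). Between genotypes the ratio of cKO to wild type was 0.992 (0.945 to 1.04) at steady state and 1.48 (0.525 to 4.51) after irradiation, with an interval that spans 1.

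Differences between libraries are given below on the log2 scale of FPKM + 1 and relative to the median over all genes kept. That median was 0.02 for cKO against wild type at steady state and −0.31 after irradiation, and it was −0.27 for irradiated against steady state in cKO cells and −0.01 in wild-type cells. A gene at least 1.5-fold apart on this relative scale was counted as higher or lower. On it, Mycn lay at −4.86 in cKO cells and −5.19 in wild-type cells, the 46th and the 78th lowest values among the 11505 genes. Mycn was lower after irradiation under all settings tried, between −2.94 and −7.63. In bulk RNA, fewer cells of a type and less RNA per cell cannot be told apart. The summed LT-HSC markers given above were likewise lower in both irradiated libraries than in both steady-state libraries. Summed early myeloid markers were too, at 158 (cKO) and 46.2 FPKM (wild type) after irradiation, against 1240 and 1612 FPKM at steady state. Summed megakaryocyte markers stood at 32.5 and 15.3 FPKM, against 340 and 377 FPKM. The neutrophil and the T and NK cell sums had this order as well, and the erythroid sum had the reverse order. Single markers were mixed in cKO cells. There 2 of 10 neutrophil markers kept were higher after irradiation and 5 lower, and 3 of 7 T and NK cell markers were higher and 2 lower. Over all genes 26.4% were higher and 25.6% lower. Most of the T and NK cell sum was Nkg7, at 98.2 FPKM in the irradiated against 325 FPKM in the steady-state cKO library. The part of these markers in the Mycn result was not tested.

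**Figure D1:**
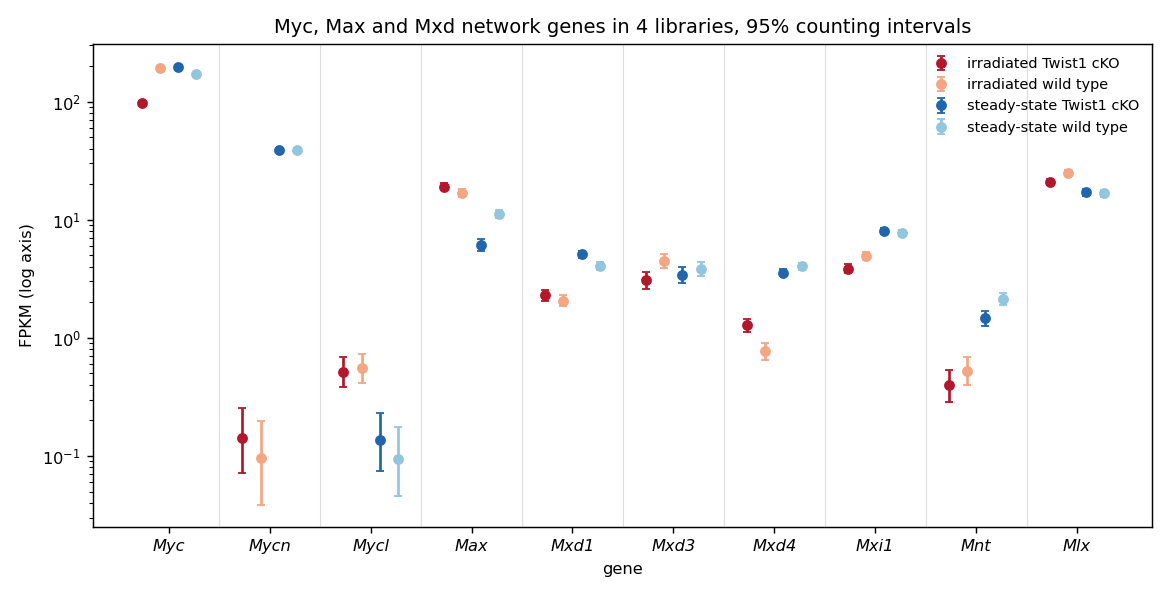
FPKM of the 10 network genes on a log axis in the irradiated cKO, irradiated wild-type, steady-state cKO and steady-state wild-type libraries, 1 point per library with its 95% counting interval. Mycn has 0.142 and 0.0960 FPKM in the irradiated cKO and wild-type libraries, against 38.9 and 39.2 FPKM in the steady-state ones, while Myc is lower in the irradiated cKO library alone.

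Myc, the broadly expressed founder of the family, stayed the most abundant member in all 4 libraries (ENSMUSG00000022346, chromosome 15, 61985341 to 61990361). After irradiation it had 98.1 FPKM (95.7 to 100.6) in the cKO library and 192 FPKM (189 to 196) in the wild-type library. At steady state it had 197 FPKM (194 to 200.2) in the cKO library and 172 FPKM (169 to 175) in the wild-type library. The irradiated cKO library thus stood alone at a low level, and the other 3 lay within 172 to 197 FPKM.

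The ratio of cKO to wild type for Myc was 0.510 (0.495 to 0.526) after irradiation and 1.15 (1.12 to 1.18) at steady state. The ratio of irradiated to steady state was 0.498 (0.484 to 0.514) in cKO cells and 1.12 (1.09 to 1.15) in wild-type cells. On the relative scale Myc lay at −0.66 for cKO against wild type after irradiation, the 104th lowest of 11505 values. It was no longer 1.5-fold lower there when genes were kept at a mean of 5 FPKM (−0.53) or the 50 most abundant genes were left out (−0.57). The small difference of irradiated from steady-state wild-type cells, 0.18, changed sign with scaling, down to −0.18.

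Markers of several cell types stood higher in the irradiated cKO library, where Myc was low. The summed level of 9 macrophage markers was 1408 FPKM there against 761 FPKM in the irradiated wild-type library, and that of 11 neutrophil markers was 1339 against 441 FPKM. Early myeloid (4 of 4 kept), T and NK cell (7 of 7) and B and plasma cell markers (6 of 7) were also at least 1.5-fold higher there. Of 13 erythroid markers 8 were higher and 1 lower, and of 12 LT-HSC markers kept 3 were higher, beside 13.5% of all genes. The part of these cells in the lower Myc level was not tested.

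Mycl, the third family member, was scarce throughout. It had 0.517 FPKM (49 reads) in the irradiated cKO and 0.559 FPKM (50 reads) in the irradiated wild-type library, against 0.137 FPKM (14 reads) in the steady-state cKO and 0.0951 FPKM (10 reads) in the steady-state wild-type library. Both irradiated libraries were above both steady-state libraries, with a ratio of 3.77 in cKO cells (lower bound 2.05) and 5.88 in wild-type cells (lower bound 2.95). This was the opposite order to Mycn, at a level that stayed below 1 FPKM.

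The make-up of the family therefore differed by condition. Mycn supplied 0.144% of the summed Myc family level in the irradiated cKO library and 0.0497% in the irradiated wild-type library, against 16.5% in the steady-state cKO and 18.6% in the steady-state wild-type library. Myc made up 99.3% and 99.7% of it in the irradiated cKO and wild-type libraries, against 83.4% and 81.3% in the steady-state cKO and wild-type libraries. The summed family level was 98.8 FPKM in the irradiated cKO library and 193 FPKM in the irradiated wild-type library, against 236 FPKM in the steady-state cKO and 211 FPKM in the steady-state wild-type library. The wild-type libraries thus differed little in their family sum, whereas the irradiated cKO library was the lowest of the 4.

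Max, the obligate partner of Myc, differed both with irradiation and, at steady state, with genotype (ENSMUSG00000059436, chromosome 12, 76937269 to 76962323). After irradiation it had 19.1 FPKM (17.8 to 20.4) in the cKO library and 16.9 FPKM (15.7 to 18.1) in the wild-type library. At steady state it had 6.09 FPKM (5.43 to 6.81) in the cKO library and 11.2 FPKM (10.3 to 12.1) in the wild-type library. Both irradiated libraries were above both steady-state libraries, and the steady-state cKO library was lowest by a margin beyond its counting interval.

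The ratio of cKO to wild type for Max was 0.544 (0.472 to 0.626) at steady state and 1.13 (1.02 to 1.25) after irradiation. The ratio of irradiated to steady state was 3.13 (2.75 to 3.58) in cKO cells and 1.51 (1.35 to 1.68) in wild-type cells. On the relative scale Max lay at −0.80 for cKO against wild type at steady state, which became −0.56 with a pseudocount of 5 and then fell short of 1.5-fold. It lay at 1.77 for irradiated against steady-state cKO cells, between 1.27 and 1.95 over all settings. In wild-type cells the same difference was 0.57, just short of the threshold of 0.58. Macrophage markers had the same order between genotypes as Max: all 9 were at least 1.5-fold lower in the steady-state cKO library, where they summed to 393 FPKM, against 1291 FPKM in the steady-state wild-type library. Over all genes 5.19% were lower there. Of 13 erythroid markers 6 were lower and 0 higher, and of 7 B and plasma cell markers kept 4 were lower and 0 higher. Of 10 neutrophil markers kept, 9 were higher and 0 lower, beside 2.10% of all genes higher. The part of these cells in the Max result was not tested.

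**Figure D2:**
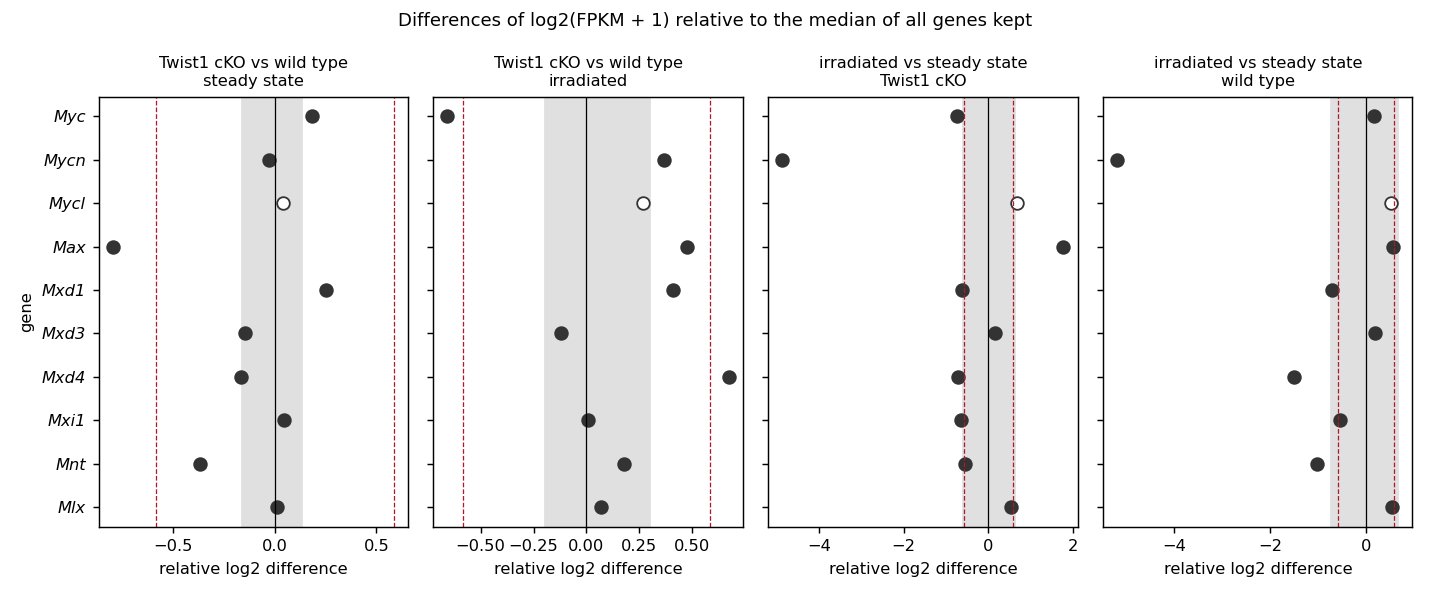
Relative log2 differences of the network genes in 4 comparisons, 1 panel each with its own horizontal scale; grey marks the middle 50% of all genes kept, dashed lines mark 1.5-fold, and the open circle is Mycl, which was below the minimum level. Max lies at −0.80 and Myc at 0.18 for cKO against wild type at steady state, and Max lies at 0.47 and Myc at −0.66 after irradiation.

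Among the antagonists, Mxi1 was the most abundant in all libraries. Mxi1, an Mxd family member, had 3.83 FPKM in the irradiated cKO and 4.94 FPKM in the irradiated wild-type library, against 8.10 FPKM in the steady-state cKO and 7.73 FPKM in the steady-state wild-type library. The irradiated level was 2.11-fold lower in cKO cells (1.90 to 2.35) and 1.56-fold lower in wild-type cells (1.42 to 1.73). Its relative difference was −0.65 in cKO cells, counted as lower, and −0.54 in wild-type cells, which was not.

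Mxd1, which is induced as many cell types leave the cycle and differentiate, had 2.29 FPKM in the irradiated cKO and 2.06 FPKM in the irradiated wild-type library, against 5.09 FPKM in the steady-state cKO and 4.05 FPKM in the steady-state wild-type library. It was lower after irradiation in both genotypes, 2.23-fold in cKO cells (1.97 to 2.52) and 1.96-fold in wild-type cells (1.72 to 2.24). At steady state the cKO level was 1.26 times the wild-type level (1.14 to 1.39), with a relative difference of 0.25.

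Mxd4 had the largest fold difference of the antagonists between irradiated and steady-state wild-type cells, though its interval overlaps that of Mnt (3.02 to 5.56). It had 1.28 FPKM (1.13 to 1.45) in the irradiated cKO and 0.772 FPKM (0.651 to 0.908) in the irradiated wild-type library, against 3.55 FPKM (3.31 to 3.82) in the steady-state cKO and 4.05 FPKM (3.79 to 4.32) in the steady-state wild-type library. The irradiated level was 5.25-fold lower in wild-type cells (4.40 to 6.30) and 2.77-fold lower in cKO cells (2.40 to 3.21). After irradiation the cKO level was 1.66 times the wild-type level (1.35 to 2.05). The relative difference of 0.67 there counted as higher, but it was 0.36 on the values as deposited and 0.29 with a pseudocount of 5.

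Mnt, the broadly expressed antagonist of the family, was the least abundant of them. It had 0.396 FPKM (43 reads) in the irradiated cKO and 0.527 FPKM (54 reads) in the irradiated wild-type library, against 1.46 FPKM (171 reads) in the steady-state cKO and 2.14 FPKM (258 reads) in the steady-state wild-type library. It was lower after irradiation by 3.69-fold in cKO cells (2.63 to 5.29) and 4.06-fold in wild-type cells (3.02 to 5.56). The pseudocount of 1 reduces such differences at low levels, and on the relative scale Mnt lay at −0.55 in cKO cells and −1.03 in wild-type cells, so that wild-type cells alone passed 1.5-fold. At steady state the ratio of cKO to wild type was 0.684 (0.560 to 0.833).

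Mxd3, which unlike its relatives is made in cycling cells, did not share this order. It had 3.07 FPKM in the irradiated cKO and 4.47 FPKM in the irradiated wild-type library, against 3.41 FPKM in the steady-state cKO and 3.82 FPKM in the steady-state wild-type library. The ratio of irradiated to steady state was 0.902 (0.721 to 1.13) in cKO cells and 1.17 (0.960 to 1.43) in wild-type cells, and both intervals span 1. The gene overlaps Prelid1, which had 287 and 429 FPKM in the irradiated cKO and wild-type libraries, against 176 and 194 FPKM in the steady-state cKO and wild-type libraries. The sources used here do not give whether reads were counted by strand, so reads of the overlapping genes may not have been kept apart.

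Mlx stayed within 1.5-fold in all comparisons on the relative scale at the main setting. For irradiated against steady-state cKO cells it reached 0.61 under other settings, just past the threshold. It had 20.9 FPKM in the irradiated cKO and 24.8 FPKM in the irradiated wild-type library, against 17.1 FPKM in the steady-state cKO and 16.8 FPKM in the steady-state wild-type library. The ratio of irradiated to steady state was 1.22 (1.11 to 1.34) in cKO cells and 1.48 (1.35 to 1.62) in wild-type cells. Relative differences were 0.54 in cKO cells and 0.55 in wild-type cells for irradiated against steady state, and 0.01 and 0.07 for cKO against wild type at steady state and after irradiation; the last changed sign with scaling, down to −0.24. Mlx overlaps Psmc3ip at a like level, between 14.3 and 33.6 FPKM, with the same limit on strand. Its partner Mlxip was lower after irradiation, at 1.84 FPKM in the cKO and 2.32 FPKM in the wild-type library, against 9.30 FPKM in the steady-state cKO and 7.12 FPKM in the steady-state wild-type library. The other partner, Mlxipl, stayed at or below 0.0770 FPKM. Mga, a large factor that also pairs with Max, had 1.08 FPKM in both irradiated libraries, against 2.21 FPKM in the steady-state cKO and 2.11 FPKM in the steady-state wild-type library.

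Summed by role, the antagonists Mxd1, Mxd3, Mxd4, Mxi1 and Mnt reached 10.9 FPKM in the irradiated cKO and 12.8 FPKM in the irradiated wild-type library, against 21.6 FPKM in the steady-state cKO and 21.8 FPKM in the steady-state wild-type library. The ratio of the Myc family sum to this sum was 9.09 in the irradiated cKO and 15.1 in the irradiated wild-type library, against 10.9 in the steady-state cKO and 9.68 in the steady-state wild-type library. Myc family transcripts exceeded the antagonists in every library, and by most in irradiated wild-type cells. Relative to Max the order was another: the ratio of the Myc family sum to Max was 5.18 in the irradiated cKO and 11.4 in the irradiated wild-type library, against 38.8 in the steady-state cKO and 18.9 in the steady-state wild-type library. The antagonist sum was 0.570 and 0.756 times the Max level in the irradiated cKO and wild-type libraries, against 3.55 and 1.95 times in the steady-state cKO and wild-type libraries. Max transcripts were thus fewer than those of either set of partners at steady state and more than those of the antagonists after irradiation. These are FPKM ratios within a library and do not depend on its scaling.

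**Figure D3:**
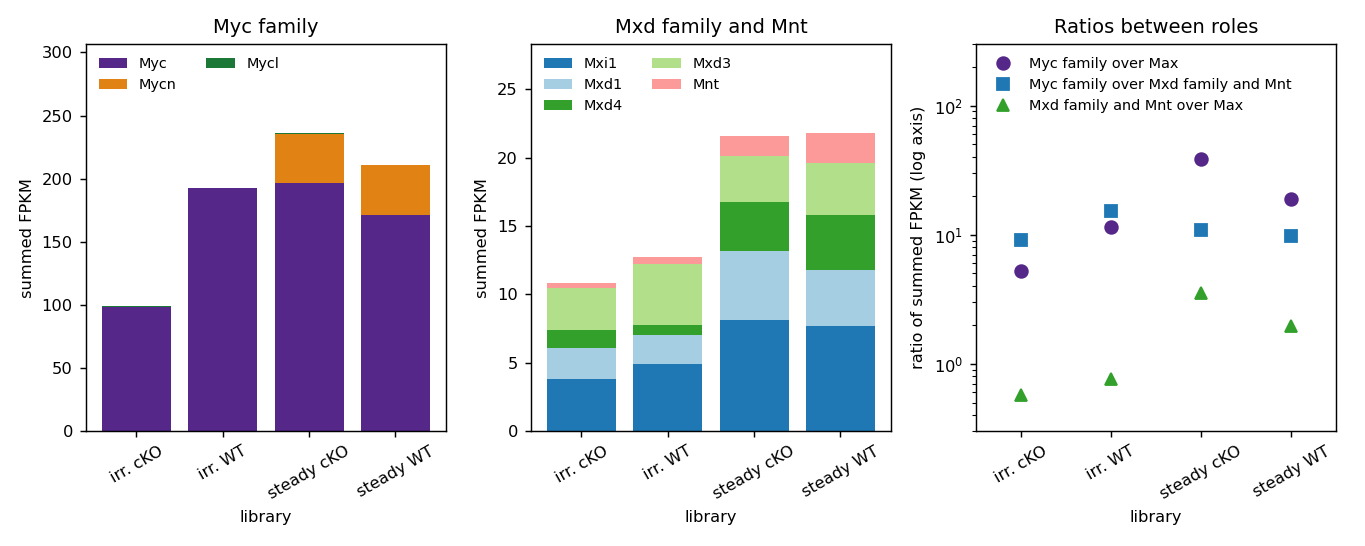
Summed FPKM of the Myc family (left) and of the Mxd family with Mnt (middle) in the 4 libraries, stacked by gene, and ratios between roles on a log axis (right). Mycn makes up 18.6% of the Myc family sum in the steady-state wild-type library, and the Myc family sum is 5.18 and 11.4 times the Max level in the irradiated cKO and wild-type libraries, against 38.8 and 18.9 times in the steady-state ones.

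The order of the members within a library differed. In the steady-state wild-type library Myc was followed by Mycn, Mlx, Max and Mxi1. Mxd4, Mxd1 and Mxd3 came next, with overlapping counting intervals (4.05, 4.05 and 3.82 FPKM), then Mnt and Mycl. In the irradiated cKO library Mlx and Max followed Myc with overlapping intervals, then Mxi1 and Mxd3, also overlapping, then Mxd1 and Mxd4. Mycl and Mnt overlapped at the low end, and Mycn was last. In the steady-state cKO library Max (6.09 FPKM) lay below Mxi1 (8.10 FPKM) with intervals apart, whereas it lay above Mxi1 in the other 3 libraries. Among all 30409 genes Mycn stood at rank 20358 in the irradiated cKO and 18264 in the irradiated wild-type library, against 1789 in the steady-state cKO and 1855 in the steady-state wild-type library.

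Counted over the 9 members kept, cKO against wild type at steady state had 1 member at least 1.5-fold lower (Max) and 0 higher, beside 5.19% of all genes lower and 2.10% higher (7.29% in either direction). After irradiation 1 was lower (Myc) and 1 higher (Mxd4), beside 1.42% of all genes lower and 13.5% higher (14.9% in either direction). Irradiated against steady state, cKO cells had 5 members lower (Mycn, Myc, Mxd4, Mxi1 and Mxd1) and 1 higher (Max), beside 25.6% of all genes lower and 26.4% higher (52.0% in either direction). Wild-type cells had 4 lower (Mycn, Mxd4, Mnt and Mxd1) and 0 higher, beside 29.4% of all genes lower and 28.1% higher (57.5% in either direction). The median over the members was −0.62 in cKO cells and −0.54 in wild-type cells for irradiation, and −0.03 and 0.18 for genotype at steady state and after irradiation, with 0 over all genes by construction. With so many genes moving between conditions, 4 to 6 of 9 members is close to the share over all genes. Without centring, 15.3% of all genes were lower and 7.86% higher in irradiated cKO than in irradiated wild-type cells. For irradiated against steady-state cKO cells 35.7% were then lower and 18.2% higher, and with the 50 most abundant genes left out 42.0% were lower and 14.8% higher. In wild-type cells leaving out those 50 genes gave 38.2% lower and 17.7% higher. The 2 irradiation comparisons use different libraries, but each shares its libraries with the genotype comparisons.

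The genotype difference of irradiated cells minus that of steady-state cells was at least 1.5-fold for 3 members, with Max and Mxd4 higher and Myc lower, beside 15.3% of all genes higher and 2.31% lower (17.6% in either direction). It was −0.84 for Myc, 1.27 for Max and 0.84 for Mxd4, again relative to the median of all genes, which was −0.32. The Mxd4 value fell short of 1.5-fold under 5 of the settings tried, among them the values as deposited (0.51) and a pseudocount of 5 (0.40). For Mycn it was 0.39, at irradiated levels of 11 and 7 reads in the cKO and wild-type libraries, and it changed sign with scaling, down to −0.09. The remaining members lay between −0.04 (Mxi1) and 0.54 (Mnt).

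Genes described in general as activated by Myc differed more with irradiation than with genotype. Of 69 genes kept from a list of 72, 0 were 1.5-fold apart between cKO and wild type at steady state, with a median of 0.01. After irradiation 1 was lower in cKO cells (Dctpp1, a nucleotide pyrophosphatase, 264 against 497 FPKM), with a median of −0.25. Over all genes 7.29% were 1.5-fold apart at steady state, and after irradiation 1.42% were lower and 13.5% higher. The count of 1 lower was thus near the share over all genes, whereas 0 of the 69 were higher. The list median of −0.25 lay below the middle 50% of all genes, which began at −0.20. On the values as deposited, which include the general shift, the list median after irradiation was −0.56 and 31 of the 69 were lower, beside 15.3% of all genes. For the difference of differences the list median was −0.28, with 0 higher and 2 lower. Over all genes 15.3% were higher and 2.31% lower in it. Irradiated against steady state, 52 of 69 were higher and 2 lower in cKO cells (median 0.95), and 57 were higher and 2 lower in wild-type cells (median 1.26). Over all genes 26.4% were higher in cKO and 28.1% in wild-type cells. Hspe1, which encodes a mitochondrial chaperonin subunit, differed most: 677 FPKM in the irradiated against 147 FPKM in the steady-state cKO library, and 1193 FPKM in the irradiated against 188 FPKM in the steady-state wild-type library. Tfrc, the transferrin receptor gene, came next at 2.35 in cKO and 2.45 in wild-type cells, and Tmem97 followed at 1.87 and 2.35; Tfrc is also on the erythroid marker list, whose summed level was higher in both irradiated libraries. The list thus stood higher in irradiated wild-type cells, in which Myc was at 192 against 172 FPKM and Mycn at 0.0960 against 39.2 FPKM, and also in irradiated cKO cells, in which Myc was at 98.1 against 197 FPKM. The part of erythroid cells in this was not tested.

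Genes described as repressed by Myc went mostly the other way, with 9 kept from a list of 12. Irradiated against steady state, 6 were lower and 1 higher in cKO cells (median −1.31), and 7 were lower and 1 higher in wild-type cells (median −1.47), beside 25.6% of all genes lower in cKO and 29.4% in wild-type cells. Clu, which encodes the chaperone clusterin, had 0.781 FPKM in the irradiated against 10.1 FPKM in the steady-state cKO library, and 0.381 FPKM in the irradiated against 10.4 FPKM in the steady-state wild-type library. Cdkn1c, the p57 inhibitor gene, had 0.376 FPKM in the irradiated against 7.36 FPKM in the steady-state cKO library, and 0.177 FPKM in the irradiated against 8.44 FPKM in the steady-state wild-type library. Between genotypes after irradiation 4 were higher in cKO cells and 0 lower (median 0.53): Ndrg2 at 3.02 against 1.40 FPKM, Itgal, an integrin of leukocytes, at 1.39 against 0.612 FPKM, Clu, and Cdkn1a, the p21 inhibitor gene (0.61). Over all genes 13.5% were higher and 1.42% lower. On the values as deposited 1 was higher and the median was 0.23. At steady state 0 of 9 differed by 1.5-fold between genotypes, with a median of −0.05 that changed sign with scaling. The 3 listed targets of Mlx with Mlxip were lower after irradiation in both genotypes. Txnip, which restrains glucose uptake, had 4.15 FPKM in the irradiated against 36.9 FPKM in the steady-state cKO library, and 3.87 FPKM in the irradiated against 41.6 FPKM in the steady-state wild-type library.

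**Figure D4:**
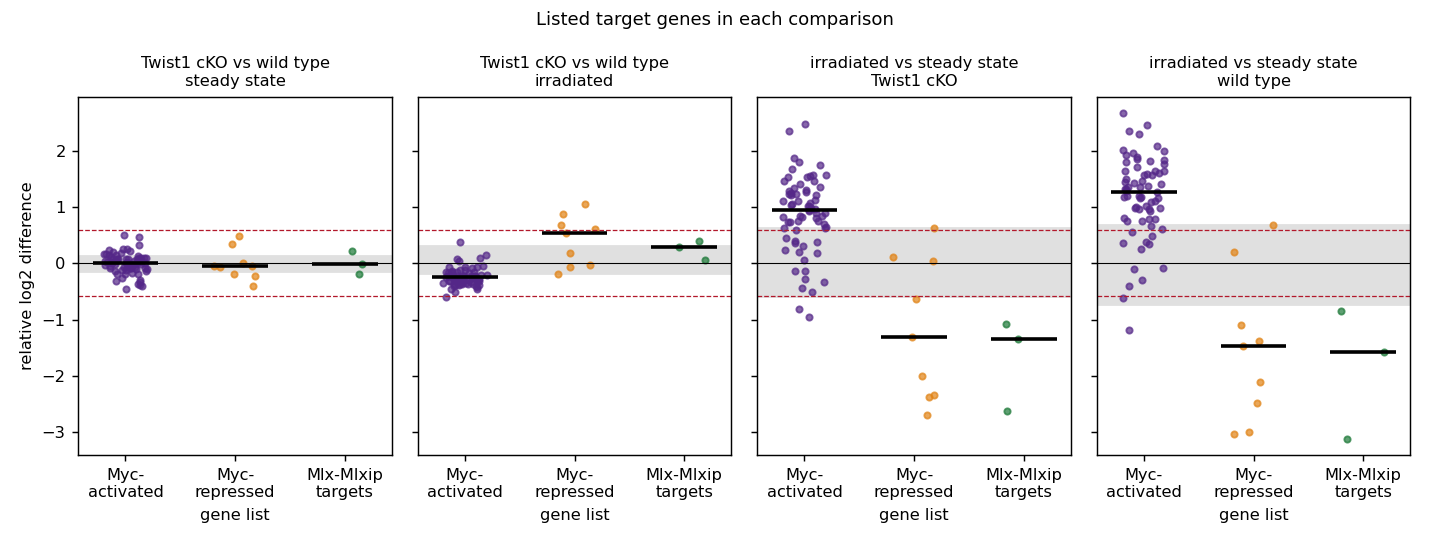
Relative log2 differences of single genes on 3 target lists in 4 comparisons, with list medians as black bars, the middle 50% of all genes kept in grey and 1.5-fold as dashed lines. Irradiated against steady state, the Myc-activated list has medians of 0.95 in cKO and 1.26 in wild-type cells, against medians of 0.01 at steady state and −0.25 after irradiation for cKO against wild type.

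Genes with the pattern nearest to that of a member were taken by Euclidean distance over the 4 log2 values after subtracting their mean, among 6021 named genes with a mean of at least 5 FPKM. Nearest to Mycn were Esam (distance 0.27), an endothelial adhesion molecule gene on the LT-HSC marker list, Pcp4l1 (0.29), Angpt1 (0.30), which encodes the ligand of the receptor Tek, Krt18 (0.32), a keratin gene, and Ldhb (0.38), a lactate dehydrogenase subunit gene. Esam had 0.640 and 0.331 FPKM in the irradiated cKO and wild-type libraries, against 54.6 and 45.4 FPKM in the steady-state cKO and wild-type libraries. Nearest to Myc were Rpl22l1 (0.13), a paralogue of a ribosomal protein gene, Mtmr9 (0.17), Nop53 (0.19), which encodes a ribosome assembly factor, Srrm2 (0.21), a splicing factor gene, and Mterf2 (0.21). Rpl22l1 had 11.3 and 20.1 FPKM in the irradiated cKO and wild-type libraries, against 21.8 and 19.4 FPKM in the steady-state cKO and wild-type libraries. With 4 libraries these are descriptions of like values.

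**Figure D5:**
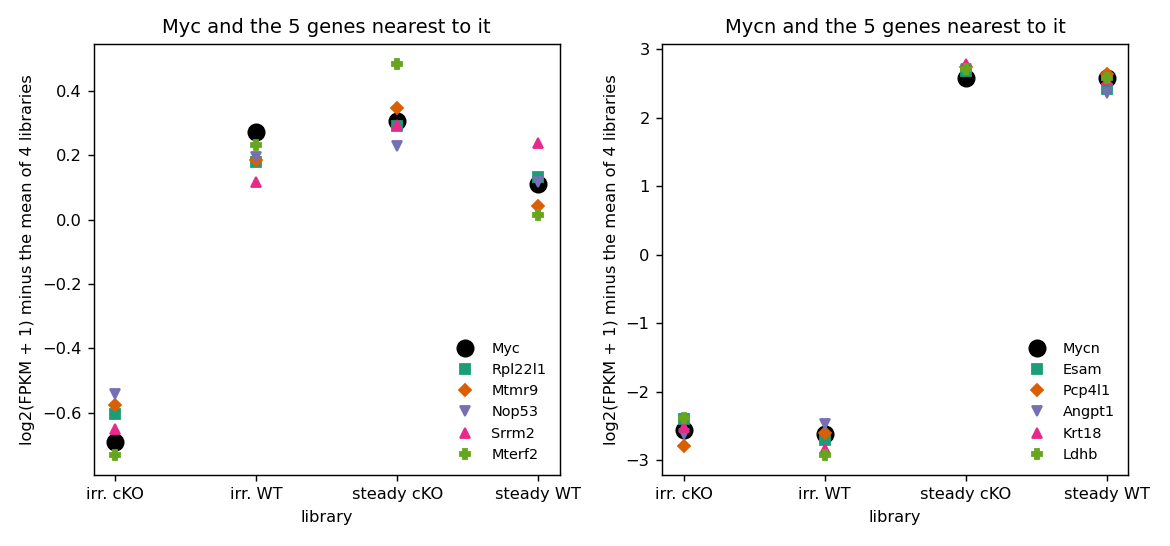
log2(FPKM + 1) minus its mean over the 4 libraries for Myc (left) and Mycn (right), each with the 5 genes nearest to it. The Myc set is low in the irradiated cKO library alone, and the Mycn set is low in both irradiated libraries and high in both steady-state libraries.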

How the data were processed

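RNA-seq of 4 libraries was analysed, 1 per group; the 2 ATAC-seq samples, also irradiated, are not analysed here. The authors deposited FPKM per Ensembl gene, per the file headers. Listed without roles in the submitters' processing notes are mm10, HOMER, MACS2 2.1.0, BWA 0.7.12-r1039 and Bowtie; the sources used here do not give the counting step. Symbols were joined to 30231 of 30409 identifiers.

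Differences were log2 of FPKM + 1 minus the median over genes with a mean of at least 1 FPKM, and a gene at least 1.5-fold apart was counted. Centring was chosen because the median of the genes kept differed from 0 between libraries, by −0.31 for cKO against wild type after irradiation; with no minimum level that median was 0.0013. No test was run and no p-value is given; a test of genotype over both conditions would have left 1 residual degree of freedom and was not run. Whole reads were recovered from ratios of the 4 FPKM values of a gene and served for Clopper-Pearson and conditional binomial intervals. They added up to between 20347845 and 25099884 per library, or 86.8% to 112% of the implied library sizes. The sum above the implied size, in the irradiated wild-type library, was not explained. For 3038 genes the reads were raised by a whole factor to make the implied gene length whole. The procedure was run on simulated data with the same gene lengths and library scales, which cannot show whether its model holds for these values. The genes named were all 10 members, Mga, Mlxip and Mlxipl, up to 3 genes per list and comparison with the greatest difference, and the 5 nearest in pattern to Myc and to the member with the greatest range. Members and lists were chosen with earlier results of these data known. Cdkn1a among the higher genes of irradiated cKO cells, Prelid1, Psmc3ip, Xist and Ddx3y were named after their values were seen. Alternatives were pseudocounts of 0.1 and 5, a minimum of 5 FPKM or none, no centring, median of ratios, the 50 most abundant genes left out and a 2-fold threshold; scaling to recovered reads was added after seeing the data. Python 3.11.15, numpy 2.4.6, pandas 2.3.3 and scipy 1.17.1 were used.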

Additional observations from a re-analysis of the deposited data

Results flagged for a closer look

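The genotype difference ran in opposite directions at steady state and after irradiation for 3 members, with the difference of differences at least 1.5-fold. In each the difference was not tested, since a group is 1 library. Myc had a difference of differences of −0.84, with 98.1 FPKM in the irradiated cKO against 192 FPKM in the irradiated wild-type library and 197 FPKM in the steady-state cKO against 172 FPKM in the steady-state wild-type library. Max had 1.27, with 19.1 against 16.9 FPKM (irradiated cKO against irradiated wild type) and 6.09 against 11.2 FPKM (steady-state cKO against steady-state wild type). Mxd4 had 0.84, with 1.28 against 0.772 FPKM (irradiated cKO against irradiated wild type) and 3.55 against 4.05 FPKM (steady-state cKO against steady-state wild type). The Mxd4 value was below 1.5-fold with a pseudocount of 5 (0.40), with no minimum level (0.51), without centring (0.51), with the 50 most abundant genes left out (0.53) and with scaling to recovered reads (0.58), and its steady-state genotype difference reached 0.01 with those 50 genes left out. All 9 macrophage markers also lay on opposite sides of wild type, 1.5-fold higher in the irradiated and 1.5-fold lower in the steady-state cKO library. Over all genes 13.5% were higher after irradiation and 5.19% lower at steady state. Of 13 erythroid markers 8 were higher and 1 lower after irradiation, and 6 were lower at steady state. Of 7 B and plasma cell markers kept, 6 were higher after irradiation and 4 lower at steady state. Of 10 neutrophil markers kept, 9 were higher in both conditions, beside 13.5% of all genes after irradiation and 2.10% at steady state. The part of these cells in these differences was not tested.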

How the results depend on the processing

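Over 9 alternatives, no member counted as 1.5-fold apart changed its direction. Over the 8 that can move a value, 274 of 400 single-gene values stayed within their counting interval (or within 0.3 for the difference of differences). For cKO against wild type after irradiation the count of 2 members became 0 with a 2-fold threshold or with the 50 most abundant genes left out, and 1 with a pseudocount of 5, with no minimum, without centring, with median of ratios scaling and with scaling to recovered reads, Myc in each. It was also 1 with a minimum of 5 FPKM, which was Max (0.60), with Myc at −0.53 and Mxd4 not kept. At steady state the count of 1 became 0 with a pseudocount of 5 and with a 2-fold threshold. For irradiated against steady-state cKO cells the count of 6 became 3 with a pseudocount of 5, 2 with a 2-fold threshold, and 8 with a pseudocount of 0.1 or median of ratios scaling. In wild-type cells the count of 4 became 2 with a pseudocount of 5 and with a minimum of 5 FPKM, and 6 with a pseudocount of 0.1, which added Max and Mxi1. The difference of differences had 1 in place of 3 members with a 2-fold threshold. Without centring, genes higher in irradiated cKO than in irradiated wild-type cells were 7.86% of all and lower ones 15.3%, against 13.5% and 1.42% with it. No paired analysis was possible because the labels give no replicate numbers to pair by; a fit of genotype with condition as a term was not run. Depth limits Mycl in all libraries, and Mycn and Mnt after irradiation, where they rest on at most 54 reads.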

Other observations

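Of 12 coactivator genes kept, 3 were at least 1.5-fold higher in irradiated than in steady-state cells in both cKO and wild-type cells: Ruvbl2 and Ruvbl1, which encode ATPases of chromatin remodelling complexes, and Actl6a, an actin-related subunit of such complexes. This count was near the share over all genes, of which 26.4% were higher in cKO and 28.1% in wild-type cells. Ruvbl2 had 190.2 FPKM in the irradiated against 77.8 FPKM in the steady-state cKO library, and 308 FPKM in the irradiated against 81.2 FPKM in the steady-state wild-type library. In cKO cells 1 coactivator gene was also lower, and the list median was −0.19, against 0.45 in wild-type cells. Of 10 corepressor genes kept, 5 were higher after irradiation in wild-type cells and 0 lower, led by Sap30, a subunit of the Sin3 complex, at 141 FPKM in the irradiated against 58.8 FPKM in the steady-state library. Over all genes 28.1% were higher and 29.4% lower in wild-type cells. With the 50 most abundant genes left out, 3 corepressor genes were higher and 3 lower there, and the list median was 0.07 in place of 0.53. In cKO cells 2 were higher and 1 lower, beside 26.4% and 25.6% of all genes, and their list median changed sign with scaling. Between genotypes, 1 corepressor gene differed by 1.5-fold at steady state, the histone chaperone gene Rbbp4 at 29.3 FPKM in the cKO against 15.2 FPKM in the wild-type library. That count was near the share over all genes, 7.29% in either direction, and it was 0 with a 2-fold threshold.

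Of 9 kept regulators of Myc protein stability, Aurka, a mitotic kinase gene, differed most with irradiation, at 60.9 FPKM in the irradiated against 18.1 FPKM in the steady-state cKO library, and at 95.8 FPKM in the irradiated against 19.8 FPKM in the steady-state wild-type library. Fbxw7, the ubiquitin ligase subunit that targets Myc, had 1.37 FPKM in the steady-state cKO against 2.14 FPKM in the steady-state wild-type library. Its relative difference of −0.42 was short of 1.5-fold with the pseudocount of 1, which reduces differences at such low levels. With a pseudocount of 0.1, 1 gene of this list was 1.5-fold lower in that comparison.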
